A study of Bos taurus with 2 samples.

Results

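The genes described here are the platelet-derived growth factor (PDGF) receptors and ligands: PDGFRA, PDGFRB and PDGFRL on the receptor side and PDGFA, PDGFB, PDGFC and PDGFD on the ligand side. They were found by symbol in the feature list, and all 7 of the 7 names were among its 21867 genes, of which 16816 had at least 1 unique molecular identifier (UMI, the tag that marks 1 captured mRNA molecule). The cells were bovine satellite cells, isolated from skeletal muscle of a male Holstein calf aged 2 weeks, kept for a week in DMEM with 10% fetal bovine serum, and sequenced as 2 single-cell 3′ libraries made from the same cells. No treatment, genotype or second animal was included, so the comparisons were between groups of cells in 1 culture. The differences between libraries 1 and 2 therefore measured technical spread only, and nothing here measures how animals differ.

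PDGFs are secreted as dimers. PDGF-A and PDGF-C chains bind mainly the receptor PDGFRα, PDGF-B chains bind both PDGFRα and PDGFRβ, and PDGF-D chains bind mainly PDGFRβ. Both receptors are tyrosine kinases that dimerize when they bind a ligand and recruit SH2-domain proteins, from which the Ras-MAPK and PI3K-AKT pathways start. In skeletal muscle PDGFRα is known as a marker of fibro-adipogenic progenitors, the mesenchymal cells between muscle fibres that can form fibroblasts and adipocytes, and PDGFRβ is known as a marker of pericytes. PDGFRL (PDGF receptor-like) resembles the extracellular part of the receptors and has no kinase domain.

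The libraries held 9939 and 9157 cells with 145631299 and 137818568 UMIs, and 27 cell barcodes occurred in both. The deposited table divided the cells into 15 clusters, each with 317 to 2493 cells. The median UMIs per cell were 647 to 2513.5 in clusters 7, 13, 14 and 15, 5398.5 in cluster 10 and 12929 to 23011 in the other clusters. PAX7, the defining gene of quiescent satellite cells, had 176 UMIs in all cells, whereas MYOD1, a transcription factor of committed myoblasts, had 114882. MYOG, which drives myoblast differentiation, was highest in cluster 12 at 18.6 UMIs per 10000 UMIs. SOX10 and FOXD3 (glia) had 0 UMIs, and PTPRC (immune cells) had 1.

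A level below is the number of UMIs of a gene per 10000 UMIs of the same cells, summed over the cells of a cluster in 1 library, and is given as the mean ± SD of the 2 libraries. Clusters were set against the rest of the cells, and against each other in pairs, with edgeR's quasi-likelihood test on those sums over all genes, called at a Benjamini-Hochberg adjusted p under 0.05. Clusters were built by the study from the same counts, so a difference between clusters describes them and is not independent evidence of them. In this test 62849 of 196010 gene-by-cluster comparisons were called, which was 32.1% (14.9% higher and 17.1% lower). By cluster the share was 33.4% in cluster 1, 31.8% in 2, 49.9% in 3, 31.6% in 4, 24.1% in 5, 20.1% in 6, 44.7% in 7, 46.0% in 8, 53.0% in 9, 38.6% in 10, 26.5% in 11, 54.3% in 12, 17.3% in 13, 7.79% in 14 and 0.273% in 15. Of the 105 comparisons of the 7 genes with the 15 clusters, 48 were called, 19 of them higher and 29 lower. With the other clusters weighted equally 28 were higher and 16 lower. The share of all genes in that setting is not given, so the shift is not read as a result about the 7 genes. Among the 29 lower calls, those of PDGFRB in clusters 1, 2, 3 and 6 rested on 3, 7, 1 and 2 UMIs. Those of PDGFC in clusters 9 and 12 rested on 7 and 2 UMIs.

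Cluster 9 was where the family was most unequal. All 7 genes passed the test there, against 53.0% of all 13205 genes tested: PDGFRA, PDGFRB and PDGFD were higher, and PDGFRL, PDGFA, PDGFB and PDGFC were lower. The kinase receptors and the most abundant ligand thus lay at opposite ends of their ranges in cluster 9. The map of fold changes shows this column beside those of the other clusters. PDGFC is grey there, since its call in cluster 9 rested on 7 UMIs (edgeR adjusted p = 0.0443). PDGFRL changed more in cluster 12 (-2.01) than in cluster 9 (-1.24).

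**Figure D1:**
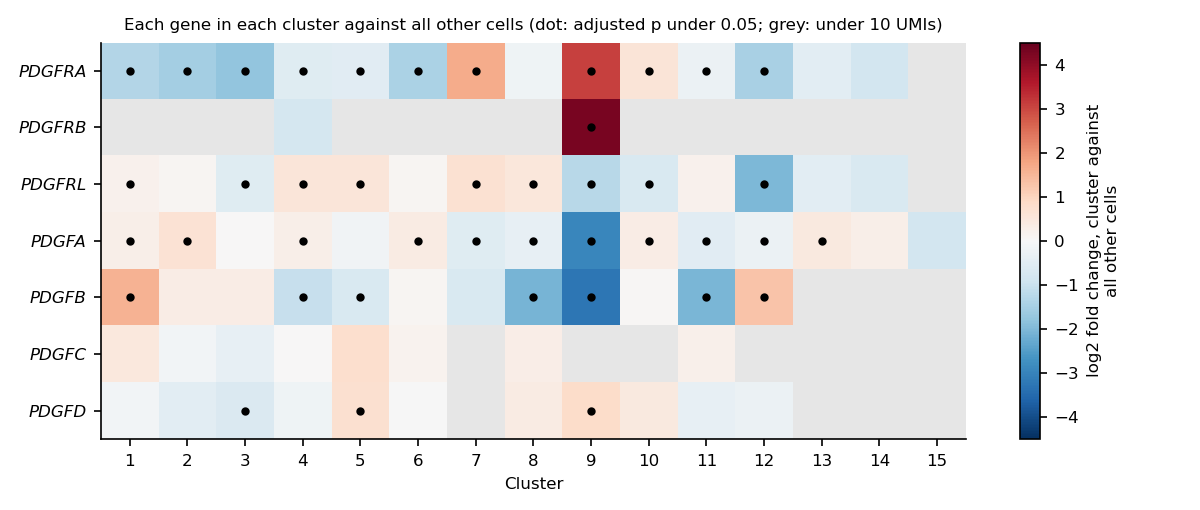
Colour gives the log2 fold change of each gene (rows) in each cluster (columns) against all other cells, from UMI sums of 2 libraries; dots mark adjusted p under 0.05 and grey squares hold under 10 UMIs. Cluster 9 holds the highest values of PDGFRA (3.07) and PDGFRB (4.26) and the lowest of PDGFA (-2.92) and PDGFB (-3.27); the colour of PDGFRA in cluster 7 rests on the 257 cells described in the text.

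PDGFRA, the receptor for PDGF-A, PDGF-B and PDGF-C, had 8883 UMIs in 4616 of the 19096 cells. Cluster 9 held 47.0% of these UMIs and 9.31% of all UMIs. Its level there was 1.63 in library 1 and 1.53 in library 2, and 0.183 ± 0.0053 in the remaining cells. Both libraries were thus far above the level in the other cells, and the log2 fold change was 3.07 (SE 0.0567, edgeR adjusted p = 1.26e-06), an 8.42-fold difference that ranked 225th from the highest of 13205 genes. Leaving out the cells with the highest doublet scores gave 3.24, and rebuilding the clusters without the 7 genes gave 3.06.

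The order of PDGFRA levels continued with cluster 7 (1.23 in library 1 and 1.74 in library 2), cluster 10 (0.502 ± 0.043) and cluster 15 (0.290 ± 0.18, from 6 UMIs). Clusters 11, 8, 13, 4 and 5 lay between 0.219 and 0.271, and clusters 14, 1, 6, 2, 12 and 3 between 0.0919 and 0.171. Only the first 2 of the 14 steps between neighbours in this order passed the test, where 27.9% of all genes did over the same pairs. Cluster 10 was higher than all other cells (log2 fold change 0.588, SE 0.0829, edgeR adjusted p = 0.00154), and the change was lower and called in clusters 1, 2, 3, 4, 5, 6, 11 and 12. When the other clusters were weighted equally, so that cluster 9 no longer dominated the reference, the values of clusters 4 and 5 were -0.15 and -0.10 and lost the call, and that of cluster 11 turned to 0.13. Cluster 11 also lost the call with DESeq2, without TMM and without the clusters of low depth. Clusters 8 (-0.20) and 14 (-0.81) were called lower too with the library as a block.

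**Figure D2:**
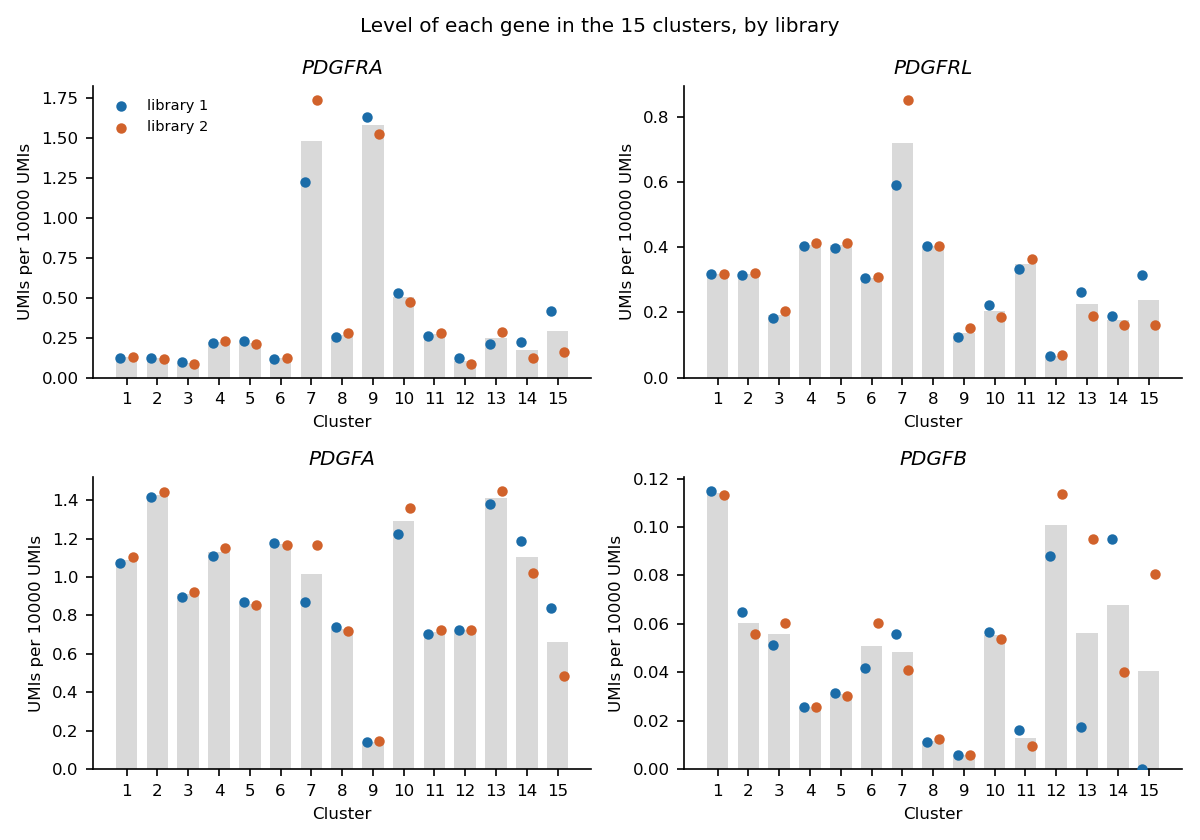
Each panel plots 1 gene; the x axis is the cluster, the y axis UMIs per 10000 UMIs, points are the 2 libraries and grey bars their mean. PDGFRA stood out in clusters 9 and 7, PDGFRL in cluster 7, and PDGFB in clusters 1 and 12, whereas PDGFA was present in every cluster and lowest in cluster 9 (0.143).

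Within cluster 9 PDGFRA was spread over nearly all cells. A UMI was found in 991 of 1080 cells, 91.8% (exact 95% interval 90.0 to 93.3%, counting error only), at a median of 3 and at most 20 UMIs per cell. In the other clusters the median was 0. Cells with 5 or more PDGFRA UMIs numbered 369 in cluster 9 and 36 in the other 14 clusters together. Of those 36 cells, 9 were among the cells with the highest doublet scores. The 369 cells of cluster 9 had a PPARG level of 0.250 and a MYOD1 level of 0.505, whereas the 36 cells had 0.0513 and 2.34. All cells of cluster 9 had 0.288 and 0.579, and all cells of the other clusters 0.0194 and 4.41. Within cluster 9 the cells with 5 or more PDGFRA UMIs thus had no higher PPARG level than the whole cluster. PPARG is the master regulator of adipogenesis.

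**Figure D3:**
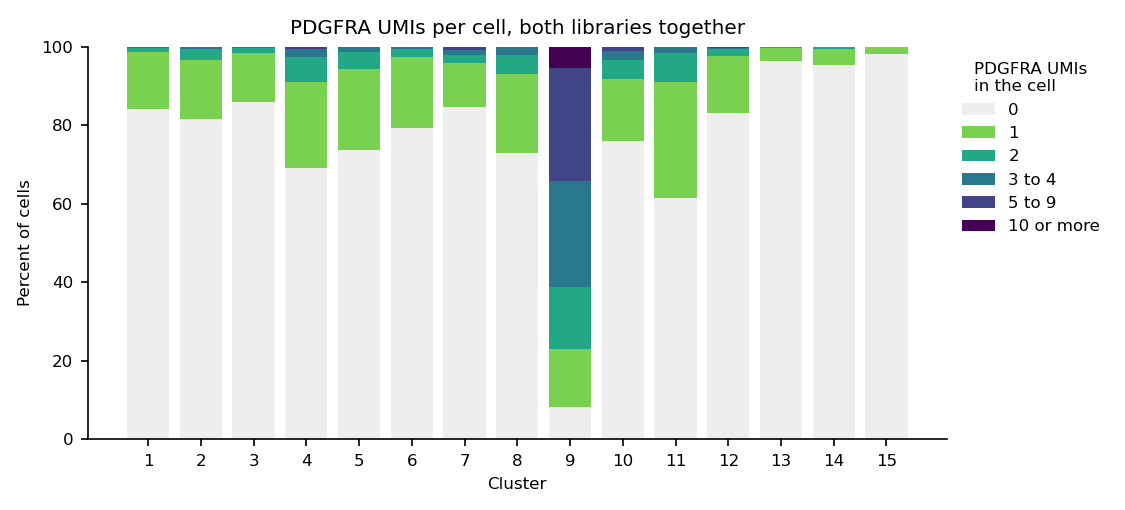
Bars give the percent of the cells of each cluster (x axis) with 0, 1, 2, 3 to 4, 5 to 9 or 10 or more PDGFRA UMIs, both libraries together and without correction for depth. In cluster 9 662 of 1080 cells held 3 or more UMIs, and no other cluster had a median above 0.

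Depth per cell differed between clusters, so each cell was also thinned to 1000 UMIs. A PDGFRA UMI then remained in 14.5% of the cells of cluster 9 (17.4% and 11.1% in the libraries, 1 random draw), and the mean over all possible draws was 14.9% (15.2% and 14.5%). In cluster 7 the share was 10.8% of the 1008 cells that had 1000 UMIs, with 290 cells left out, and in cluster 10 it was 5.74%. Cluster 12, the MYOG-high cells taken as the reference for cells not known to use the receptor, had 0.478% by the draw and 0.957% by the mean over draws, from a median of 19113 UMIs per cell. By the mean over draws cluster 3 (0.870%) lay just below this reference, and cluster 1 had 1.33%. The levels of clusters 12 and 3 did not differ by the test (log2 fold change 0.26, edgeR adjusted p = 0.301). Whether the signal of either is background was not tested. The part of free RNA in these low shares was not tested.

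In cluster 7 most PDGFRA UMIs lay in a part of the cells. The log2 fold change of cluster 7 against the remaining cells was 1.66 (SE 0.172, edgeR adjusted p = 6.27e-04). A PDGFRA UMI was found in 200 of its 1298 cells, at a median depth of 1389 UMIs per cell. This share is not comparable with that of cluster 9, whose median depth was 23011, and the shares after thinning lay closer. When the clusters were rebuilt from all genes except the 7, 257 cells of cluster 7 separated with 1 other cell into a cluster of 258. The rebuilt cluster 7 held the other 1041 cells and 62 cells from other clusters. It no longer differed upward (log2 fold change -0.20, edgeR adjusted p = 0.419). These 257 cells, 116 from library 1 and 141 from library 2, held 79.2% of the PDGFRA UMIs of cluster 7. The subgroup was picked after its values were seen, so its values are given with no test.

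The 257 cells had a PDGFRA level of 4.59 in library 1 and 5.52 in library 2, and a UMI was found in 53.3% of them. The other 1041 cells of cluster 7 had 0.325 and 0.481. PDGFA was 0.106 and 0.131 in the 257 cells (6 UMIs) and 1.07 and 1.51 in the others. MYOD1 was 0.528 and 0.526 in the 257 cells and 3.27 and 2.80 in the others, and PPARG was 0.264 and 0.361 against 0.0141 and 0.0217. ZNF423, a transcription factor of preadipocytes, did not follow PPARG, at 0.106 and 0.0657 in the 257 cells (4 UMIs) and 0.113 and 0.0984 in the others. MYOG was likewise lower in the 257 cells, at 0.422 and 0.164 against 2.18 and 2.21. MYOD1, MYOG, PPARG and ZNF423 were among the genes that rebuilt the clusters, so their values are not independent of the split. PDGFRB had 5 of its 6 UMIs of cluster 7 in the 257 cells. Low PDGFA and MYOD1 beside high PDGFRA and PPARG was also the order in cluster 9, at a median depth of 1655 UMIs per cell here and 23011 there.

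**Figure D4:**
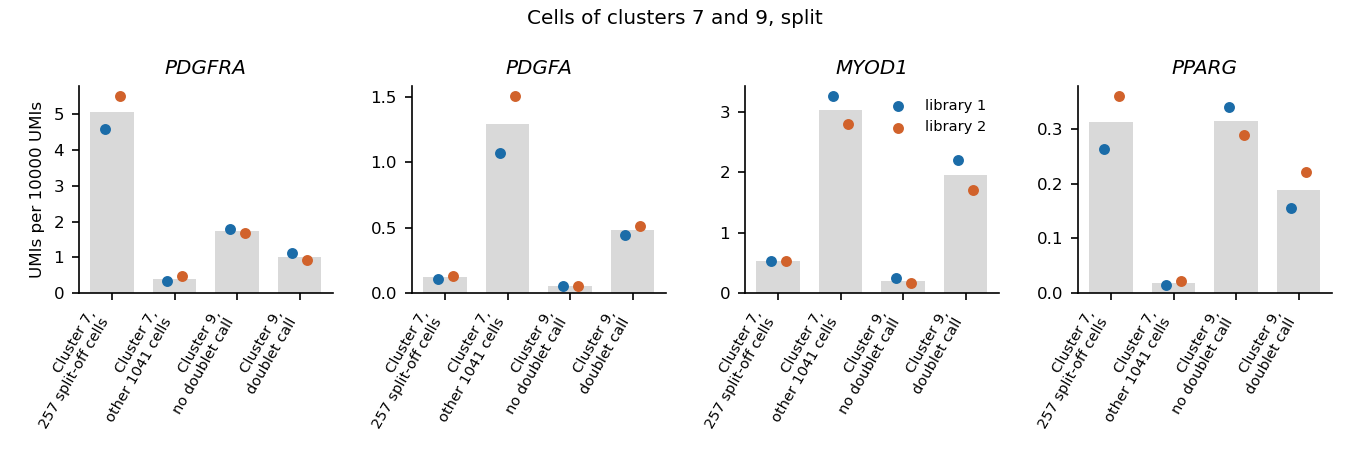
Levels (y axis, UMIs per 10000 UMIs) of PDGFRA, PDGFA, MYOD1 and PPARG in 4 groups of cells (x axis): the 257 cells of cluster 7 that separated when clusters were rebuilt without the 7 genes, the other 1041 cells of cluster 7, and the cells of cluster 9 without and with a high doublet score; points are libraries and bars their mean. PDGFRA and PPARG were high where PDGFA and MYOD1 were low, and the cells of cluster 9 with a high doublet score lay between.

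Compared directly, cluster 9 was above cluster 7 for PDGFRA by a log2 fold change of 0.548 (SE 0.126, edgeR adjusted p = 5.99e-04), in a comparison where 56.0% of all genes were called. This difference depended on the scaling: without TMM normalization it was 0.07 and not called, it was 0.28 and not called without cells under 2000 UMIs, and plain levels of the libraries overlapped (1.63 and 1.53 in cluster 9, 1.23 and 1.74 in cluster 7). TMM moved the median gene of cluster 7 by 0.646 on the log2 scale against the plain shares, so each change given for cluster 7 is relative to that shift. The PDGFA change in cluster 7 (-0.55 with TMM, 0.09 without) turned with it. PDGFA and PDGFRL were lower in cluster 9 than in cluster 7 by 2.38 and 1.95 on the log2 scale, and both calls held without TMM.

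PDGFRB, the receptor for PDGF-B and PDGF-D, was sparse, with 188 UMIs in 173 cells. Cluster 9 held 126 of them, or 67.0%. The level in cluster 9 was 0.0493 in library 1 and 0.0460 in library 2, and 0.00241 ± 0.00014 in the remaining cells, and the log2 fold change was 4.26 (SE 0.223, edgeR adjusted p = 2.52e-05). Cluster 7 had the next highest level, 0.0223 and 0.0328 in the libraries from 6 UMIs. Cluster 9 did not differ from it by the test (edgeR adjusted p = 0.130). The 257 cells of cluster 7 described above had 0.106 and 0.0986, from 5 UMIs. Every cluster other than 9 had at most 14 UMIs, at differing depth. Cluster 15 had none in 317 cells, which allows a share of up to 0.946% of cells with a UMI. At the low depth of cluster 15 this also allows a level of up to 0.137, which is above that of cluster 9. A PDGFRB UMI was found in 10.3% of the cells of cluster 9 (exact 95% interval 8.53 to 12.2%) and in 0.319% of cluster 12. None of the 14 neighbouring steps in its order passed the test, where 31.9% of all genes did. Clusters 5 (7 UMIs) and 12 (2 UMIs) were called lower as well with the library as a block.

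The 2 kinase receptors were found in the same cells of cluster 9 slightly less often than their separate shares gave. Of the 111 cells with PDGFRB, 96 also held PDGFRA, and the product of the shares within each library gave 101.8. Without the cells of high doublet score the numbers were 83 and 90.2. With PDGFRA in 91.8% of the cells, such numbers can hardly lie far apart. A PDGFRB UMI was found in 9.69% of the 991 cells with PDGFRA and in 16.9% of the 89 cells without it. The PDGFRB levels of the libraries were 0.0465 and 0.0406 with PDGFRA, and 0.0827 and 0.117 without it (19 UMIs). This difference was not tested. With so few UMIs per cell a missing partner says little about the cell.

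Among other markers of pericytes, RGS5 had 8 UMIs in all cells and MCAM 102. CSPG4 and NOTCH3 were highest in cluster 7, at 2.31 and 1.68, and had 0.865 and 0.214 in cluster 9. The 7 pericyte markers, PDGFRB included, summed to 3.89 and 4.14 in the libraries of cluster 7, with 2 of them at 0. They summed to 1.27 and 1.02 in cluster 13 and to 1.12 and 1.15 in cluster 9, where none was at 0, and to 0.123 to 0.948 in the libraries of the other clusters. The part of pericytes in the PDGFRB level was not tested. The endothelial markers summed to 0.0373 and 0.0361 there. Of the fibro-adipogenic markers other than PDGFRA, PPARG, ZNF423, DPT (0.474) and MFAP5 (0.173) were highest in cluster 9. COL1A1 and COL3A1 were highest in cluster 7 (146 and 176) and lower in cluster 9 (24.6 and 17.7). GSN and FBN1 were also highest in cluster 7, DCN, LUM and THY1 in cluster 8 and CXCL14 in cluster 10. DPP4 and PI16 had 0 UMIs in cluster 9. The 15 fibro-adipogenic markers, PDGFRA included, summed to 63.4 and 64.9 in the libraries of cluster 9. These sums were 367.5 and 371.5 in cluster 7, and they were also above those of cluster 9 in clusters 1, 4, 5, 8, 10, 11 and 13. The 8 myogenic markers summed to 2.27 and 1.72 in cluster 9, against 63.2 and 65.0 in cluster 12.

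PDGFRL, with 8442 UMIs in 6104 cells, did not follow the kinase receptors. It was lowest in cluster 12 (0.0677 ± 0.0037) and next lowest in cluster 9 (0.123 in library 1 and 0.151 in library 2). The level of cluster 9 was below that of all other cells by 1.24 on the log2 scale (SE 0.0927, edgeR adjusted p = 1.06e-04) and above that of cluster 12. Of the 14 steps between neighbours in its order 3 passed the test (29.3% of all genes). Clusters 4, 5 and 8 were nearly equal, at 0.409 ± 0.0054, 0.406 ± 0.011 and 0.403 ± 0.00027, and each was called higher than all other cells, with log2 fold changes of 0.53, 0.54 and 0.52. Cluster 7 had the highest plain level, 0.722 ± 0.19, with 157 UMIs. Its log2 fold change of 0.68 was 0.71 when cells under 2000 UMIs were left out, but no longer called (edgeR adjusted p = 0.290). Cluster 11 was also called higher with the library as a block (0.19). The higher call of cluster 1 (0.18) was lost with DESeq2, without TMM and without the filter on low counts.

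The ligand PDGFA was the most widely detected of the 7 genes, with 27436 UMIs in 60.1% of cells. Its level was 1.43 ± 0.021 in cluster 2, where 86.2% of cells had a UMI, and was also high in cluster 13 (1.41 ± 0.048) and cluster 10 (1.29 ± 0.093). The lowest level, 0.140 in library 1 and 0.145 in library 2, was in cluster 9, and the remaining cells had 1.05 ± 0.018. The libraries of cluster 9 lay below those of every other cluster, and the log2 fold change was -2.92 (SE 0.0568, edgeR adjusted p = 1.40e-06), a 7.56-fold difference. Clusters 1, 2, 4, 6, 10 and 13 were called higher and clusters 7, 8, 9, 11 and 12 lower. Without cells under 2000 UMIs the changes of clusters 7 and 13 were -0.74 and 0.26 and not called. The calls of clusters 7 and 12 were lost with equal weights (-0.20 and -0.01). Cluster 5 was also called lower with the library as a block (-0.15). Of the 14 steps between neighbours in the order of PDGFA levels, 5 passed the test, where 32.3% of all genes did.

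Much of the PDGFA that was counted in cluster 9 lay in cells of high doublet score. The 156 cells of cluster 9 with such a score held 264 of its 376 PDGFA UMIs, at levels of 0.446 and 0.515 in the libraries. The other 924 cells held 112, at 0.0525 and 0.0551. PDGFB showed the same split, with 13 UMIs in the 156 cells and 2 in the 924. MYOD1 was 2.21 and 1.71 in the 156 cells and 0.239 and 0.160 in the 924. Without the high-scoring cells the log2 fold changes of cluster 9 were -4.29 for PDGFA and -5.80 for PDGFB, the latter from 2 UMIs. The doublet scores were computed from the counts of the same cells, and PDGFA, PDGFB and MYOD1 were not left out. The values of these genes are thus not independent of the split. Whether these cells are true doublets was not tested.

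PDGFB, the ligand of both receptors, had 1393 UMIs. It was highest in cluster 1 (0.115 in library 1 and 0.113 in library 2) and cluster 12 (0.0878 and 0.113), and these neighbours did not differ by the test. Cluster 1 was above all other cells by a log2 fold change of 1.57 (SE 0.0903, edgeR adjusted p = 1.80e-04), which ranked 42nd from the highest of 13093 genes, and cluster 12 by 1.29 (SE 0.150, edgeR adjusted p = 5.95e-04). The lowest levels were in clusters 11, 8 and 9, at 0.0127 ± 0.0047, 0.0118 ± 0.00067 and 0.00569 ± 0.000079, with 20, 20 and 15 UMIs. All 3 were called lower than the rest, by 2.05, 2.08 and 3.27 on the log2 scale. Clusters 2 and 3 (both 0.34) were called higher too with the library as a block. Of its 14 neighbouring steps 2 passed the test (33.4% of all genes).

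PDGFC and PDGFD, whose chains carry a CUB domain that must be cleaved off before they bind a receptor, were rare, with 184 and 556 UMIs. PDGFC was lower in cluster 9 (7 UMIs) and cluster 12 (2 UMIs), and no cluster was called higher. The 2 UMIs of cluster 12 gave a level of 0.00161 ± 0.00002, and the remaining cells had 0.00673 ± 0.0008. PDGFD was higher in cluster 9, at 0.0317 in library 1 and 0.0345 in library 2 against 0.0182 ± 0.0009 in all other cells (log2 fold change 0.822, SE 0.168, edgeR adjusted p = 0.00722). Its log2 fold change in cluster 5 (0.71) was 0.71 with DESeq2, 0.67 without TMM, 0.68 without the filter and 0.71 without the clusters of low depth, none of them called. Its lower call in cluster 3 (-0.66) was lost with DESeq2, without the filter, with rebuilt clusters and with equal weights. No step between neighbouring clusters passed the test for either gene, where 36.2% and 34.5% of all genes did, and over all 7 orders the share was 32.2%.

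Pairs of clusters were also compared along 2 paths through the clusters with myogenic markers, 8 to 1 to 3 to 12 and 8 to 5 to 4 to 2. With the pair of 9 and 7 these made 7 pairs and 49 tests, of which 22 were called, against 31.2% of all genes over the same pairs. PDGFA was called on all 7 pairs and PDGFB on 6, PDGFRL on 5 and PDGFRA on 4, and the 3 sparse genes on none. With the library as a block PDGFD was called from cluster 5 to 4 (-0.81 on the log2 scale, edgeR adjusted p = 0.0157).

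On the first path PDGFB rose 3.30 on the log2 scale from cluster 8 to cluster 1 (SE 0.270, edgeR adjusted p = 6.95e-10), fell by 1.00 to cluster 3 and rose 0.94 to cluster 12. PDGFA rose 0.61 to cluster 1 and then fell by 0.23 and by 0.24. PDGFRL fell at each step, by 0.31, 0.68 and 1.43. PDGFRA fell by 1.01 to cluster 1 and by 0.45 to cluster 3, and its value at the last step was 0.26 (edgeR adjusted p = 0.301).

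On the second path PDGFA rose at each step, by 0.22, 0.33 and 0.35 on the log2 scale. PDGFB rose 1.37 from cluster 8 to cluster 5, was at -0.33 to cluster 4 (edgeR adjusted p = 0.425) and rose 1.24 to cluster 2. PDGFRL was at 0.00 and -0.05 on the first 2 steps and fell by 0.35 on the last. PDGFRA fell by 0.86 at the last step, was at -0.29 from cluster 8 to cluster 5 (edgeR adjusted p = 0.117) and at -0.04 from 5 to 4. With the library as a block and with DESeq2 the step from 8 to 5 was called for PDGFRA. Without cells under 2000 UMIs the PDGFA steps 1 to 3, 3 to 12 and 8 to 5 were -0.21, -0.22 and 0.25, close to their first values but not called. The same held for the PDGFRA step 1 to 3 (-0.43) and the PDGFRL steps 8 to 1 (-0.32) and 4 to 2 (-0.35). Clusters 1, 2, 3, 4, 5, 8 and 12 held 0 cells under 2000 UMIs. This filter thus left their sums as they were and changed only other clusters in the fit that all clusters share. With rebuilt clusters the PDGFA steps 1 to 3 and 3 to 12 (-0.14 and -0.19) and the PDGFRA step 1 to 3 (-0.32) were not called either.

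Over the 15 clusters the log2 levels of PDGFRA and PDGFA had a Pearson correlation of -0.519 (-0.612 in library 1 and -0.381 in library 2), and of -0.732 over the 11 clusters of greater depth. PDGFRA and PDGFB had -0.541, and PDGFA and PDGFB 0.630. PDGFRL had 0.245 with PDGFRA, which turned to -0.101 over the 11 clusters, and 0.351 with PDGFA (0.416 over the 11). Cluster 9 weighs heavily in the values of PDGFRA with the ligands, since it had the highest PDGFRA and the lowest PDGFA and PDGFB. Its PDGFA level was 0.143, and the next lowest was 0.662 in cluster 15. Correlations without cluster 9 are not given, so no opposite pattern over the other clusters is read from these values. They are descriptions over clusters that share their libraries and differ in depth.

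The genes with the pattern over clusters most like that of a member were taken among genes with 1000 or more UMIs. For PDGFRA they were CCDC136 (correlation 0.976), ITGA5 (0.967), the α5 integrin chain of the fibronectin receptor, and FST (0.956), the activin antagonist follistatin. For PDGFRL they were COL15A1 (0.945), a basement membrane collagen, RBM43 (0.929, but 0.635 in library 2 alone) and TADA1 (0.928). PDGFA was most like PLXNA2 (0.869), a semaphorin receptor, SLC8A3 (0.863, but 0.489 in library 1 alone), a sodium-calcium exchanger, and MFAP4 (0.855). PDGFB was most like DUSP26 (0.915), CD82 (0.913), a tetraspanin, and ENSBTAG00000027629 (0.907). In library 1 alone these values were 0.687, 0.662 and 0.717. Over the 11 deeper clusters the first gene of each list kept a correlation of 0.924 to 0.973 but was no longer first in its list, at places 17, 15, 3 and 17.

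Genes that act with the PDGF receptors were divided into 5 lists of 75 genes in all, of which 68 were tested in cluster 9. There 23 were called higher and 16 lower, against 25.3% and 27.7% of all genes, and the median log2 fold change was 0.0634 beside -0.0410 for all genes. Counts near these shares say nothing particular of the lists together.

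Of the 8 tested genes that process or bind PDGF ligands, 2 were higher in cluster 9 and 4 lower. NRP1, a neuropilin co-receptor, was at 0.648 ± 0.018 against 0.215 (log2 fold change 1.56), and FURIN, a protease that matures PDGF chains, was at 0.583 ± 0.023 against 0.234 (1.28). PLAT, the protease that activates PDGF-C, was lower at 0.692 ± 0.012 against 1.48 (-1.13), as were SPARC (-0.65), a matrix protein that binds PDGF, and PLAU (-0.14), which activates PDGF-D.

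Of 23 genes of receptor-proximal signalling, 7 were higher and 6 lower in cluster 9. The regulatory subunits of PI3-kinase moved apart: PIK3R1 had a log2 fold change of 0.79 and PIK3R2 of -0.98. SHC1 (0.56), an adaptor, and FYN (0.47), a Src-family kinase, were higher, whereas SOS2 (-0.61) and SOS1 (-0.44), the exchange factors for Ras, were lower. Among 15 Ras-MAPK and AKT genes 4 were higher and 2 lower, and the changes were small, with log2 fold changes of 0.50 for MAPK3 and 0.39 for NRAS. Of 13 tested negative regulators 3 were higher and 3 lower. DUSP6 (0.82), a phosphatase of ERK, and PTPN1 (0.41) were higher, and SPRY1 (-1.32), CBLB (-1.003) and PTPN12 (-0.29) were lower. With the library as a block 7 negative regulators were higher, but the share of all genes called that way is not given.

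The related class III and V receptors and their ligands, which include the KIT, CSF1 and VEGF systems, had the median furthest from that of all genes among the 5 lists in cluster 9. Of 9 tested in cluster 9, 7 were higher and 1 lower, with a median log2 fold change of 2.12. In each other cluster only 8 of the list passed the filter on low counts. The count and median of cluster 9 thus include a gene that passed only with the sums of that cluster, and they are not over the same genes as elsewhere. PGF, the placental growth factor, was at 0.252 ± 0.016 against 0.00642 in all other cells, VEGFC at 1.07 ± 0.036 against 0.229 and KITLG, the ligand of KIT, at 0.135 ± 0.006 against 0.0303, with log2 fold changes of 5.26, 2.19 and 2.12 (edgeR adjusted p from 1.48e-06 to 1.63e-05). VEGFB was lower (-0.28). In cluster 7 the same list had 6 of 8 higher and 1 lower with a median of 0.971 (18.3% and 26.4% of all genes), and the list of ligand processing and binding had 5 of 8 higher, none lower and a median of 1.09. In cluster 12 none of 8 related receptors and ligands was higher and 7 were lower, with a median of -1.32 (24.8% and 29.5% of all genes). Cluster 12 was not alone in this. The median of this list was -1.47 in cluster 2, -1.01 in cluster 1 and -0.945 in cluster 3. It was -0.797 in cluster 14, -0.722 in cluster 6 and -0.529 in cluster 4.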

How the data were processed

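Each library was processed per the labels and the study's methods with Cell Ranger 3.0.2 on the bovine build ARS-UCD1.2, and the authors combined the libraries, thinned to equal mapped depth, and clustered the cells. The deposited matrix holds counts of UMIs per gene and cell, not normalized. The deposited table of cluster averages was treated as a score, since its values are means per cell scaled by the authors. The authors' log2 fold changes and p-values in that table were not used. The cluster of every cell was deduced from the averages, and all 252240 UMI sums of gene and cluster then matched.

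UMIs were summed per library and cluster. Sums were tested with edgeR 4.0.16 (R 4.3.3; TMM, filterByExpr, quasi-likelihood, Benjamini-Hochberg over all genes tested). The test was checked on simulated data. Alternatives were DESeq2 1.42.0, the library as a block, no TMM, no filter, depth and doublet filters, rebuilt clusters, equal weights and single libraries. The libraries pair the sums, since both come from the same cells: the log2 ratio of library 1 to library 2 in a cluster correlated over genes with that in all other cells by 0.167 to 0.669 (genes with 20 or more UMIs in each sum). Doublet scores came from Scrublet. Its automatic thresholds called 0 and 6 cells, so cells scoring above the limit of the highest 8% in each library (1395 cells, 7.31%) were left out instead, a rule added after seeing the data. Clusters were rebuilt with scanpy 1.11.5 without the 7 genes, giving 16 clusters of which 9 matched a deposited one.

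Named genes were the 7 genes, for each with 1000 or more UMIs the 3 genes of most similar pattern, in cluster 9 the 3 called genes of each list with the largest rise and fall at 0.1 UMIs per 10000 or more, and MYOD1, MYF5, MYOG, PPARG and ZNF423 beside PDGFRA. Patterns used log2 of the level plus 0.01. Genes and lists were chosen with earlier results of these data known. Intervals and limits cover counting error only. No coordinates are given. Some genes that the naming rule or the marker lists include are not reported here.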

Additional observations from a re-analysis of the deposited data

How the results depend on the processing

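Of the 87 tests with 10 or more UMIs that were followed through the alternatives, 64 were called. Of these 64, 45 kept direction and call under every alternative that was run on them. Tests of PDGFRB, PDGFC and PDGFD entered this set only where they had been called, and their uncalled tests were left out. The 64 of 87 is thus not a share of calls over all tests with 10 or more UMIs. Not each of the 9 alternatives was run on each test, since pairs of clusters were not refitted with equal weights or without the clusters of low depth, and unmatched clusters gave no value with rebuilt clusters. In cluster 9 the changes of PDGFRA, PDGFRB, PDGFRL, PDGFA, PDGFB and PDGFD kept their direction and call without the cells of high doublet score and with rebuilt clusters. With the library as a replicate block 22 comparisons of gene and cluster were higher and 34 lower. For pairs of clusters 24 tests were called in this fit. From the lists, it called 31 genes up and 19 down in cluster 9. How many of all genes it called is not given. These counts are thus not read as results about the 7 genes or the lists.

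With rebuilt clusters the sign turned for PDGFRA in cluster 7 (-0.20), PDGFRL in cluster 6 (-0.067) and PDGFB in cluster 6 (-0.17, and -0.025 without the cells of high doublet score). With the other clusters weighted equally it turned for PDGFRA in clusters 8 (0.21) and 11 (0.13) and PDGFA in cluster 5 (0.077). In that setting 16 comparisons were lower, and the share of all genes beside this count is not given. Without TMM it turned for PDGFA in clusters 3 (-0.10, and -0.019 without the filter) and 7 (0.092), for PDGFRA from cluster 5 to 4 (0.019) and for PDGFRL from 5 to 4 (0.010). PDGFRL from cluster 8 to 5 turned to 0.0082 without TMM, 0.0012 without the filter and 0.024 without cells under 2000 UMIs. Clusters 8 and 5 themselves held 0 such cells. The causes of these changes were not tested.

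The share of cells with a UMI followed the depth chosen. Thinned to 500 UMIs it was 7.13% for PDGFRA in cluster 9, 5.16% in cluster 7 and 0.648% for PDGFA in cluster 9, and thinned to 5000 it was 53.9%, 33.3% (of the 12 cells left) and 4.63%. At 1000 UMIs PDGFA in cluster 9 had 1.67%, which was 0.866% without the cells of high doublet score and 1.11% as the mean over all draws. In single libraries the shares ran from 11.1 to 17.4%, from 9.84 to 11.6% and from 1.62 to 1.71%. The correlation of PDGFRA and CCDC136 was 0.961 with a pseudocount of 0.1, and that of PDGFA and PLXNA2 was 0.832, and 0.956 over the 11 deeper clusters. PDGFRB, PDGFC and PDGFD were limited by their counts, with at most 126, 28 and 87 UMIs in a cluster.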
